A study of Mus musculus with 4 samples.

Results

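The Ly6 block is the stretch of mouse chromosome 15 that holds most of the Ly6 gene family. Its members were the non-control probes placed by the array annotation (build mm9) between chr15:73410936-75726178, a window of 2.32 Mb. There were 56 such probes of 41174 on the array, which carried 49 of its 28146 gene names. Of the 49 genes, 9 had names that start with Ly6, 6 were relatives known to encode a protein of the same domain family (Psca, Slurp1, Lypd2, Lynx1, Gml and Gpihbp1), and 34 were the remaining genes of the window. The classes went by the names on the array, so the remaining genes hold 2010109I03Rik and Hemt1, which RefSeq now names Ly6m and Gml2. The window had been chosen from the difference between the lines compared here, so every difference given for a member is a description and carries no test. A gene with several probes was read by its brightest probe.

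RNA was taken from stable lines of EPH-4, a cell line of mouse mammary epithelium. EV-50 carried the empty vector, and shGR-19 carried a vector for a short hairpin RNA against the glucocorticoid receptor (GR), the ligand-activated transcription factor encoded by Nr3c1. Both lines were grown without serum, without glucocorticoids (the ligands of GR) and under the same selection with 2 µg/ml puromycin. Each is a single clone, so that the lines differ by clone as well as by the hairpin and these cannot be told apart. For each of the 4 arrays, 2 per line, 300 ng RNA was labelled with Cy3 and hybridized to an Agilent whole-genome array, on which the fluorescence of a probe rises with the amount of its RNA. The labels do not say whether the duplicates came from separate cultures, so the spread between them may be technical.

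Ly6 proteins are small proteins with a compact fold held together by disulphide bonds, shared with the urokinase receptor (uPAR) and with snake toxins. Most are fastened to the outer face of the cell membrane by a glycosylphosphatidylinositol (GPI) anchor, and some are secreted. Several, such as Ly6a (Sca-1) and Ly6c1 and Ly6c2 (the Ly-6C antigen), are used as surface markers of stem and blood cells. Members of the family expressed in nerve and skin bind to nicotinic acetylcholine receptors.

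The genes arose by duplication, and the array probes of some are alike. The windows below are the most alike stretches of 30 bases between the probes of Ly6a and Ly6c1, bases 6 to 35 of the first and 26 to 55 of the second, written 5′ to 3′ with the 4 bases that differ in capitals. They are shown because these members are read by probes that share 26 of 30 bases.
Ly6a: gttatagaagCtccaaGgtgggAGtagtgt
Ly6c1: gttatagaagGtccaaTgtgggGAtagtgt
Among the other pairs of the 22 probes compared, the best match was 18 of 30 bases or fewer. How far the Ly6a and Ly6c1 probes read each other's RNA was not tested.

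Promoters were at hand in RefSeq (GRCm38.p6, a later build than that of the array) for Ly6c1, Ly6c2 and Ly6f, which are members with lower values in shGR-19. The 250 bases before the start site are shown with a run of 15 bases in capitals that the 3 have in common. They lie at chr15:75048838-75049087 on the minus strand, chr15:75111972-75112221 on the minus strand and chr15:75268171-75268420 on the plus strand.
Ly6c1: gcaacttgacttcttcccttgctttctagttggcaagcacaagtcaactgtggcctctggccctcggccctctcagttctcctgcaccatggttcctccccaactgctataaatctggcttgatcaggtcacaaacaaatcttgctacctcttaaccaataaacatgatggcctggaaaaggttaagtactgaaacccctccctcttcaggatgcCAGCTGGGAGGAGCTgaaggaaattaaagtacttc
Ly6c2: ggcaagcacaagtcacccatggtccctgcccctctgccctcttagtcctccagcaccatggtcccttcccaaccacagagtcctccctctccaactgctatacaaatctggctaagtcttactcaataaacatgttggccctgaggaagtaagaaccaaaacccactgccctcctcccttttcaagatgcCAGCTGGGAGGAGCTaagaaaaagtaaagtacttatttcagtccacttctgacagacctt
Ly6f: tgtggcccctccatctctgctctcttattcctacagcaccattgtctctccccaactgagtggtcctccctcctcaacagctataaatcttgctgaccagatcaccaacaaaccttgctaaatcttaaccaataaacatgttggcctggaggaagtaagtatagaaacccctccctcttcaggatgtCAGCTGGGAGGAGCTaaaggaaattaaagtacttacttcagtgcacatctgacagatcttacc
The run starts 35, 60 and 63 bases before the start site in Ly6c1, Ly6c2 and Ly6f. It occurs in 6 of the 32851 promoters of the table, and these belong to Ly6a2, Ly6c1, Ly6c2 and Ly6f. Over these 250 bases, 58.9% of aligned positions were identical between Ly6c1 and Ly6c2, 65.4% between Ly6c1 and Ly6f and 66.4% between Ly6c2 and Ly6f. Ly6c1 and Ly6c2 each have a second start site in the table, and for pairs of different genes that involve these the share was 47.5% to 60.5%. Searched on both strands were the palindromic glucocorticoid response element (the hexamer AGAACA, any 3 bases, and the reverse complement of the hexamer), the hexamer AGAACA alone, the interferon-stimulated response element (TTTC, any 2 bases, TTTC) and the gamma-activated sequence TTCNNNGAA. The palindrome was present in 0.00913% of all promoters, the hexamer, which it contains, in 19%, and the interferon motifs in 3.44% and 8.30%. None of the 5 windows of these 3 genes held any of the 4 motifs, which says only that these letters are not in windows of 300 bases.

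The probe for Nr3c1, the targeted gene, had scanner values of 1.81 and 1.92 for the duplicates labelled EV-50 against 1.46 and -0.03 for those labelled shGR-19 (log2 signal, the 75th percentile of an array being 0). The array labelled shGR-19 replicate 1 was therefore lower by far less than that labelled replicate 2. In the deposited value table, in which each probe is centred on its median, the same gene read 0.98 and 0.95 in EV-50 against -0.95 and -0.98 in shGR-19. Over 10267 brighter probes, the SD of the log2 difference was 0.0801 between the scanner arrays labelled replicate 1, against 0.446 for those labelled replicate 2 and 0.516 and 0.621 for the duplicates of EV-50 and shGR-19. The SDs between the duplicates of the value table were 0.0961 and 0.0854. The arrays labelled replicate 1 were thus alike although labelled as different lines, and each was far from the other array of its own label. The array labelled shGR-19 replicate 1 was 0.521 from EV-50 replicate 2, and that labelled EV-50 replicate 1 was 0.621 from shGR-19 replicate 2. These distances do not tell which array or arrays go against their labels. The Ly6-named genes and the summaries of the block are therefore given from the value table and from the scanner arrays, and other values are those of the table unless the scanner is named.

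A gene was kept where its probe was well above background in the duplicates of 1 line or more. This held for 36 of the 49 members, among them all 9 Ly6-named genes, 5 of the 6 relatives and 22 of the 34 other genes. Of all 49, 34 were well above background on all 4 arrays, 4 on 1 to 3 arrays and 11 on none. A gene can pass this filter through the line in which it is high, so that the kept members are not a neutral sample of the block.

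In the value table, 7 of the 9 Ly6-named genes were more than 2-fold lower in shGR-19, while Ly6h and Ly6k were not. Their median log2 difference, shGR-19 minus EV-50, was -1.75, against 0.02 over the 16760 kept genes of the array. Less RNA per cell and fewer cells that carry it cannot be told apart in such bulk RNA. Of the 36 kept members, 30 had a lower and 6 a higher mean in shGR-19, and 12 were more than 2-fold lower and 0 more than 2-fold higher. Of all kept probes, 3.49% had means more than 2-fold lower and 2.63% more than 2-fold higher. In limma, 11 members were over 2-fold lower and passed a Benjamini-Hochberg adjusted p below 0.01, of which 6 were Ly6-named, and 0 passed and were higher. The shares of all kept probes that passed were 2.39% lower and 1.87% higher. Nothing is read from the excess among members, since the window was chosen on this contrast. At an unadjusted p below 0.05, 21 members passed, beside 48.4% of all kept probes. With the replicate number as a block, 0 members were called, and 0 of all 24443 kept probes. At an adjusted p below 0.05 there were 12 members with the block, beside 5.07% of all kept probes. With all probes of the array kept, 1 member was called, beside 0.104% of all probes. The columns of the lines did not overlap for 23 members lower and 4 higher in shGR-19, against 35.3% and 36.6% of all kept probes.

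**Figure D1:**
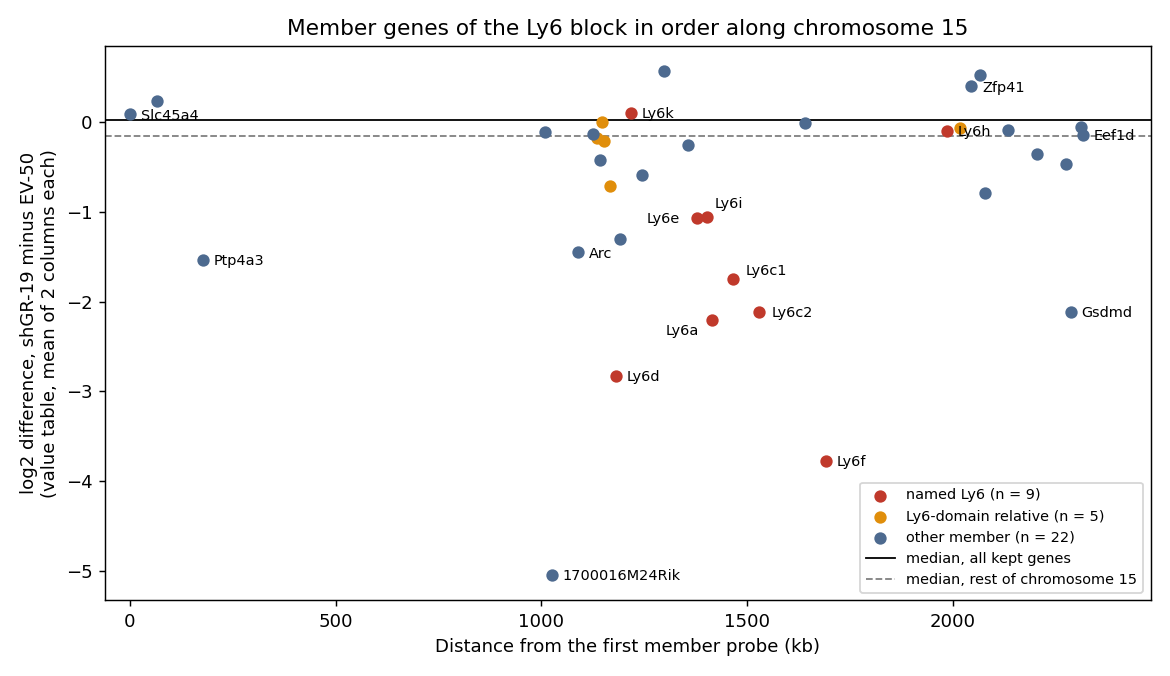
Log2 difference by the value table (y axis, shGR-19 minus EV-50, mean of 2 columns each) against distance from the first member probe in kb (x axis), 1 point for each of the 36 kept genes, coloured by class. The solid and dashed lines are the medians of all kept genes (0.02) and of the rest of chromosome 15 (-0.16). Low points of the Ly6-named class lie side by side with members near 0, and the members at both edges are near 0.

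Ly6f, a close relative of Ly6a, showed the largest difference of the Ly6-named genes in the value table. It read 1.78 and 2.07 in EV-50 and -1.78 and -1.91 in shGR-19, a difference of -3.77 (SE 0.131) and a level 13.6-fold higher in EV-50. Its probe was dim on the scanner, with values of -4.58 and -4.06 for EV-50 and -4.57 and -5.82 for shGR-19. The array labelled EV-50 replicate 1 was not well above background for it. Between the scanner arrays labelled replicate 2 the difference was -1.76, and the gap of 2.01 to the value table was the largest of any kept member. The size of the Ly6f difference thus depended on the source of the values more than that of any other kept member.

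Ly6d encodes a surface antigen of keratinocytes and of developing B cells. In the value table it read 1.46 and 1.38 in EV-50 and -1.38 and -1.43 in shGR-19, a difference of -2.83 (SE 0.057). On the scanner arrays it read 1.34 and 1.52 for EV-50 and 1.21 and -1.34 for shGR-19. The array labelled shGR-19 replicate 1 was close to both EV-50 arrays, and only that labelled replicate 2 was low. Ly6d was the single Ly6-named gene for which both shGR-19 scanner arrays lay below both EV-50 arrays.

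Ly6a encodes Sca-1, a surface protein used to enrich stem and progenitor cells, including those of the mammary gland. Its values in the table were 1.15 and 1.08 in EV-50 against -1.08 and -1.10 in shGR-19, a difference of -2.21 (SE 0.054) and a level 4.62-fold higher in EV-50. On the scanner arrays it read 1.42 and 0.84 for EV-50 and 1.27 and -1.44 for shGR-19. The line labels overlapped on the scanner, since the array labelled shGR-19 replicate 1 lay between the EV-50 arrays.

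Ly6c1 and Ly6c2 encode the highly similar forms of the Ly-6C antigen, found on monocytes, some T cells and endothelium. Ly6c2 read 1.14 and 1.03 in the EV-50 columns of the table and -1.03 in each shGR-19 column, a difference of -2.11 (SE 0.061). Ly6c1 read 0.95 and 0.79 in EV-50 and -0.79 and -0.96 in shGR-19, a difference of -1.75 (SE 0.102). Its probe is the one that resembles that of Ly6a. On the scanner, Ly6c2 read 3.42 and 2.76 for EV-50 and 3.28 and 0.61 for shGR-19, and Ly6c1 read -1.04 and -2.44 for EV-50 and -1.22 and -4.08 for shGR-19. In both genes the array labelled shGR-19 replicate 2 was the lowest and the other shGR-19 array lay between the EV-50 arrays.

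Ly6e and Ly6i showed smaller differences. Ly6e, an interferon-inducible member with wide expression, read 0.64 and 0.44 in EV-50 and -0.44 and -0.62 in shGR-19 (value table), a difference of -1.07 (SE 0.111). Ly6i was among the members that passed the adjusted p and Ly6e was not, at nearly the same difference. Nothing is read from this, since the window was chosen on this contrast. Ly6i, a relative of Ly6a and Ly6c1, read 0.48 and 0.62 in EV-50 and -0.54 and -0.48 in shGR-19, a difference of -1.06 (SE 0.074). On the scanner arrays Ly6e read 4.99 and 5.73 for EV-50 and 5.01 and 4.58 for shGR-19. The columns of the table were apart for both genes, while on the scanner the lines overlapped for both. For Ly6i the scanner values were -2.18 and -2.78 for EV-50 against -2.51 and -3.56 for shGR-19.

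Ly6h and Ly6k did not share the pattern. Ly6h, best known from brain, read 0.25 and -0.05 in EV-50 and -0.04 and 0.04 in shGR-19 (value table), a difference of -0.10 (SE 0.125). A second Ly6h probe was not kept and had the same sign, with -0.25. Ly6k, best known from testis and sperm, read -0.31 and 0.10 in EV-50 and 0.10 and -0.10 in shGR-19, a difference of 0.10 (SE 0.178). Both probes were dim, with scanner values of -4.70 to -4.39 for Ly6h and of -4.42 to -4.33 for Ly6k over the 4 arrays. For both genes the table difference was smaller than its standard error and the columns of the lines overlapped, although on the scanner both shGR-19 arrays lay above both EV-50 arrays for Ly6k, by 0.04 in the mean. Ly6k nevertheless lies among the members with large differences, 35.0 kb from Ly6d, whereas Ly6h lies 293.3 kb beyond Ly6f.

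**Figure D2:**
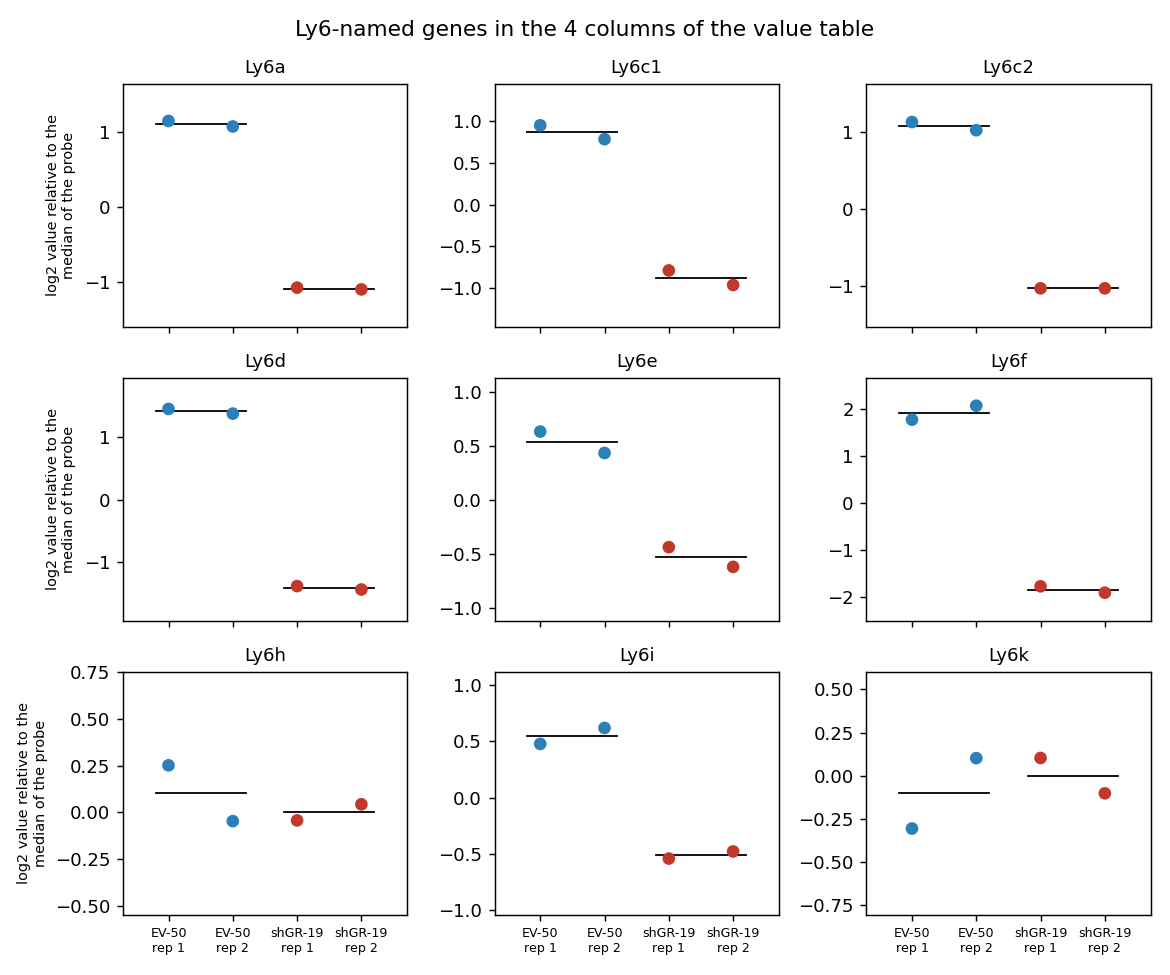
The 9 Ly6-named genes in the value table, 1 panel per gene. Each point is 1 column (EV-50 blue, shGR-19 red), the y axis is the log2 value relative to the median of the probe, and horizontal lines are line means over 2 columns; y axes differ between panels. In 7 panels the columns of the lines are far apart, and in the panels of Ly6h and Ly6k they overlap.

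**Figure D3:**
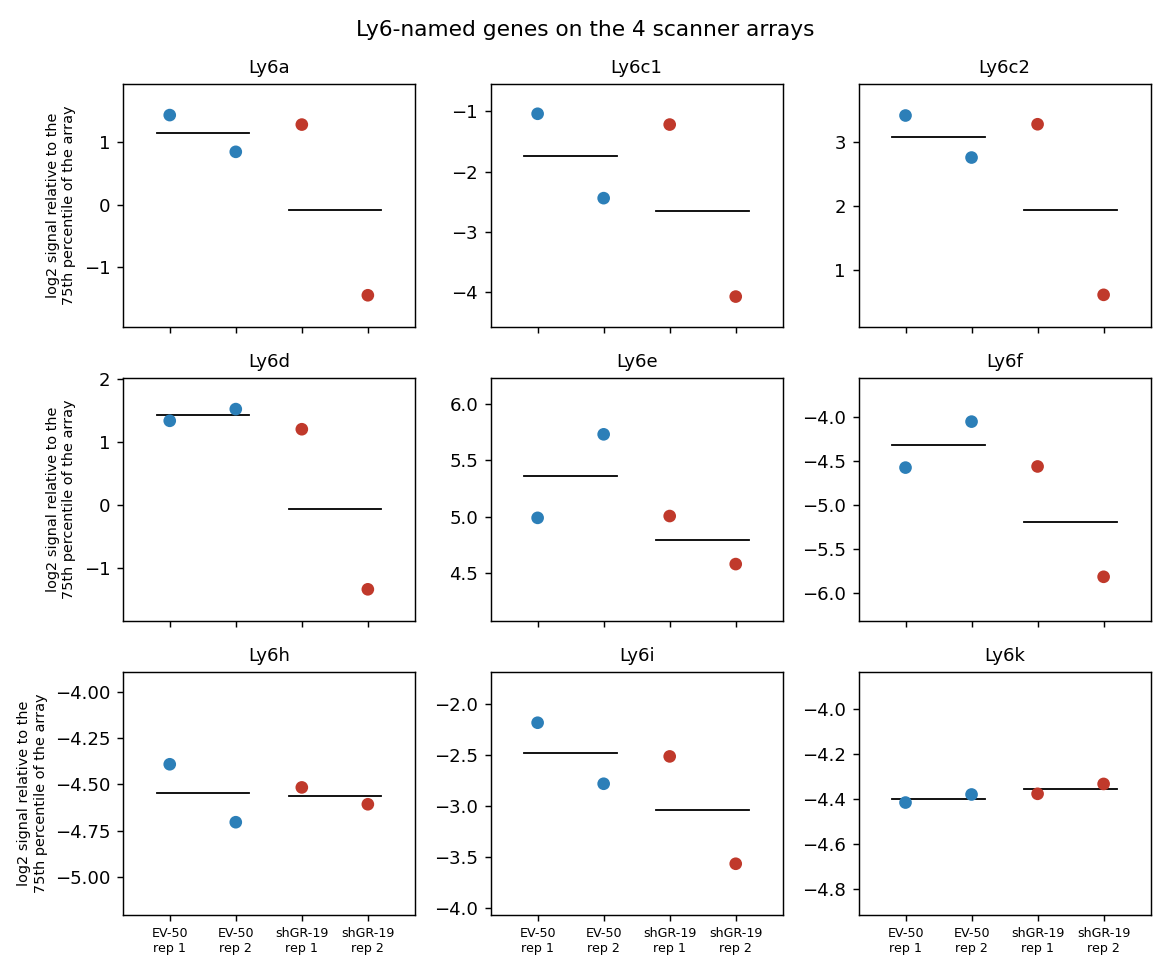
The same 9 genes on the 4 scanner arrays, with log2 signal minus the array's 75th percentile on the y axis and line means over 2 arrays as horizontal lines; y axes differ between panels. In 7 panels the array labelled shGR-19 replicate 2 is the lowest point and the array labelled shGR-19 replicate 1 lies near those of EV-50.

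The Ly6-domain relatives were closer to the rest of the array. The 5 kept relatives had lower table means in shGR-19, their median difference being -0.17, and 0 were more than 2-fold lower. With Ly6m and Gml2 counted among them, 6 of 7 were lower and 1, Ly6m, was higher, and the median was again -0.17. With Ly6m counted instead among the Ly6-named genes, 8 of 10 were lower and 2 higher. The median of these 10 was -1.405 in the table and -0.72 on the scanner, smaller in size than without Ly6m. Lynx1, which encodes a brake on nicotinic acetylcholine receptors, was the most different, with 0.41 and 0.34 in EV-50 and -0.34 and -0.35 in shGR-19, a difference of -0.72 (SE 0.052). Its scanner arrays did not overlap either, with differences of -0.09 and -0.65 between those labelled replicates 1 and 2. Psca, a prostate stem cell antigen first described in cancer, differed by -0.17 (SE 0.075). Slurp1, a secreted member made by keratinocytes, differed by -0.003 (SE 0.053), and Lypd2 by -0.21 (SE 0.079). Gpihbp1, which carries lipoprotein lipase to the capillary lumen, differed by -0.06 (SE 0.075) in the table. On the scanner it read -1.54 and -1.736 for EV-50 and -1.738 and -1.83 for shGR-19. The nearest arrays of the lines were thus almost equal, beside a scanner SE of 0.217. For Slurp1 and Gpihbp1 the columns of the table overlapped.

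Gml, a gene for a GPI-anchored molecule, was the relative that was not kept. It was well above background on 2 arrays, EV-50 replicate 2 and, for shGR-19, replicate 1. Its brighter probe read 1.22 and 1.42 in EV-50 and -1.22 and -1.505 in shGR-19 by the value table, and -5.40 and -4.64 for EV-50 and -5.11 and -7.64 for shGR-19 on the scanner. The array labelled shGR-19 replicate 2 was low again, but the signal there was not well above background. The second Gml probe, also not kept, differed by -1.59 in the table.

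Among the 22 other kept members, 17 were lower and 5 higher in mean in the value table, with a median difference of -0.20. The largest difference of the whole block was that of 1700016M24Rik, whose current symbol is Mroh4. It read 2.51 and 2.50 in EV-50 and -2.58 and -2.50 in shGR-19, a difference of -5.04 (SE 0.056) and a level 33.0-fold higher in EV-50. On the scanner it read 0.53 and 0.79 for EV-50 and 0.54 and -3.94 for shGR-19. The array labelled shGR-19 replicate 2 was again the low one, and the difference of -4.74 between the arrays labelled replicate 2 exceeded that of every Ly6-named gene.

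Gsdmd, which encodes the pore-forming protein gasdermin D of inflammatory cell death, was read from 10 spots per array. It read 1.07 and 1.04 in EV-50 and -1.04 and -1.07 in shGR-19 by the table, a difference of -2.11 (SE 0.048). On the scanner it read -0.53 and 0.22 for EV-50 and -0.54 and -2.01 for shGR-19, so that the lines did not overlap there either, although the array labelled shGR-19 replicate 1 lay just below the EV-50 arrays. Ptp4a3, the gene of the tyrosine phosphatase PRL-3, differed by -1.54 (SE 0.050) in the table and by -0.78 over the scanner arrays. Its second probe, also kept but dim, differed by -0.36 (SE 0.279) in the mean. The columns of that probe overlapped, with differences of -0.86 and 0.13 between those labelled replicates 1 and 2. The probes of Ptp4a3 thus differed more than 2-fold from each other in the size of the difference.

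Arc, an immediate early gene of neurons, read 0.72 and 0.70 in EV-50 and -0.70 and -0.78 in shGR-19, a difference of -1.45 (SE 0.055), and differed by -0.77 over the scanner arrays. D730001G18Rik, a non-coding transcript by its accession, read 0.68 and 0.61 in EV-50 and -0.61 and -0.71 in shGR-19, a difference of -1.30 (SE 0.062), and differed by -0.72 over the scanner arrays. Together with 1700016M24Rik, Gsdmd and Ptp4a3 these were the members without a Ly6 name that were more than 2-fold lower. Among the genes outside both Ly6 classes, next in order of lower values were Top1mt (mitochondrial topoisomerase) with -0.79, Hemt1 (current symbol Gml2) with -0.59 and the transcript NAP026415-1 with -0.47.

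Among the same genes, the largest difference toward higher values was that of 2010109I03Rik, which RefSeq now names Ly6m, a member of the family under another name on the array. It read -0.22 and -0.45 in EV-50 and 0.24 and 0.22 in shGR-19, a difference of 0.57 (SE 0.100). On the scanner it read -3.59 and -3.42 for EV-50 and -3.34 and -3.18 for shGR-19, so that the lines were apart in both sources and in the same direction. The next in order were 0.53 for 2810039B14Rik, 0.40 for the zinc finger gene Zfp41, 0.24 for 1700010B13Rik and 0.09 for Slc45a4, a transporter gene. For 1700010B13Rik the scanner mean had the opposite sign, with -0.12.

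The large differences were not evenly laid out along the chromosome. The 7 Ly6-named genes more than 2-fold lower lay within 509.9 kb, from Ly6d at chr15:74592551-74592610 to Ly6f at chr15:75102462-75102522. Of the 13 kept members in that span, 5 did not have a Ly6 name, and 1 of these was more than 2-fold lower, D730001G18Rik, 9.1 kb from Ly6d. 1700016M24Rik and Arc lay 63.1 kb apart and before this span, whereas Ptp4a3 (chr15:73587281-73587340) and Gsdmd (chr15:75697536-75697595) stood near opposite ends of the block. The first kept member, Slc45a4, differed by 0.09 and the last, Eef1d, a subunit of a translation elongation factor, by -0.14. Outside the block, Dennd3 (8952 bp before it) differed by -0.25, Ptk2 by 0.04 and Eif2c2 by 0.01. The next gene on that side, 2310051F07Rik, differed by 0.34, toward higher values. Behind it, Pycrl (20869 bp away) differed by -0.20, Tsta3 by -0.13 and Zfp623 by -0.07.

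The rest of chromosome 15 was also lower in shGR-19 than the array as a whole. Over its 646 kept genes the median difference in the value table was -0.16 and 68.7% of genes were lower, against 47.8% of all kept genes. Chromosome 15 had the third lowest median of 20 chromosomes, with -0.16, after chromosomes 18 and 6 with -0.32 and -0.21, and the highest was 0.28 on chromosome 16. The 27 kept members without a Ly6 name had a median of -0.17, close to that of the rest of the chromosome. More than 2-fold lower were 5 of these 27, against 28 of the 646 genes in the rest of the chromosome. The window was chosen on this contrast, so nothing is read from these counts. Stretches as long as the block on either side had medians of 0.01 over 9 genes before it and -0.17 over 77 genes behind it. The part of such a shift of the whole chromosome in the values of the block was not tested.

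**Figure D4:**
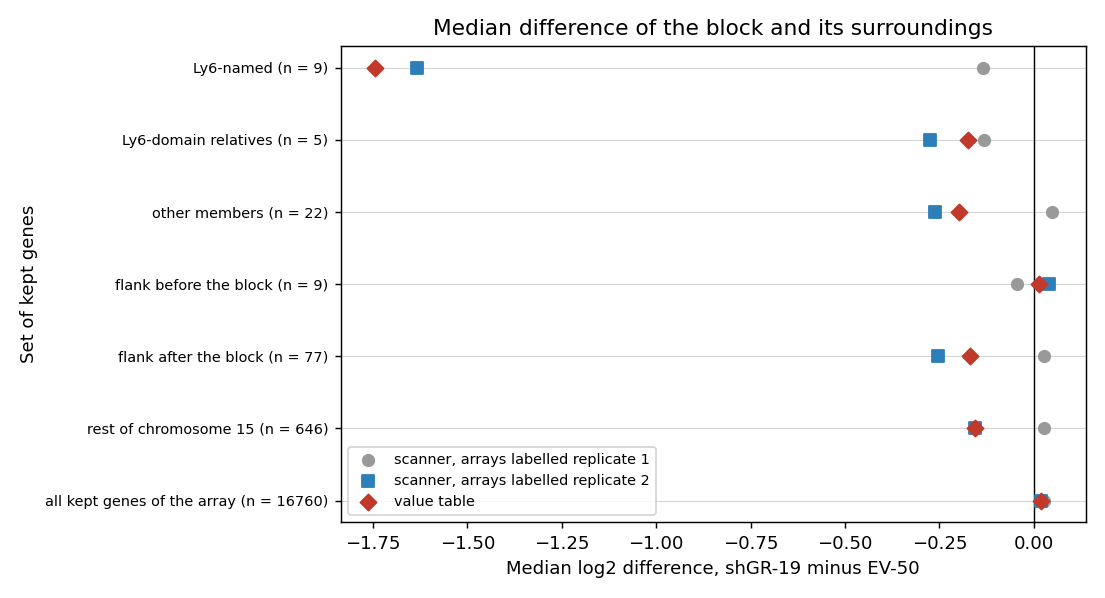
Median log2 difference (x axis, shGR-19 minus EV-50) of classes of kept genes in the block and of its surroundings (rows, with the number of genes), in the value table and between the scanner arrays labelled replicates 1 and 2. The Ly6-named genes stand at -1.75 and -1.63 in the table and the second pair, and at -0.13 in the first pair, whereas all other sets lie between -0.28 and 0.05.

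On the scanner arrays taken as labelled, limma called 0 members, 0 at an unadjusted p below 0.05 as well, and 0 of 24441 probes of the array (0% called), of which 209 passed the unadjusted p (0.855%). The smallest adjusted p was 0.93. The median over the Ly6-named genes was -0.88 and over all kept members -0.20. Means were lower in shGR-19 for 29 of the 36, and 5 were more than 2-fold lower, where 1.16% of all kept probes were. Both shGR-19 arrays lay below both EV-50 arrays for 8 members and above them for 4, against 6.15% and 11.8% of all kept probes.

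The scanner pairs by replicate number differed from each other. Between the arrays labelled replicate 2, 11 of the 36 members were more than 2-fold lower in shGR-19 and 0 more than 2-fold higher, against 3.16% and 2.37% of all kept probes, and the median over the Ly6-named genes was -1.63. Between those labelled replicate 1, 0 members differed by more than 2-fold (1.11% of all kept probes were lower and 2.46% higher by that much), the largest difference was 0.714 for Psca, and the median over the Ly6-named genes was -0.13. The value table had the sign of the second pair for 32 of the 36 members, with a median gap of 0.104. It had the sign of the first pair for 23. The table and the scanner files are labelled as coming from the same samples, so these counts are no independent support for the table.

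**Figure D5:**
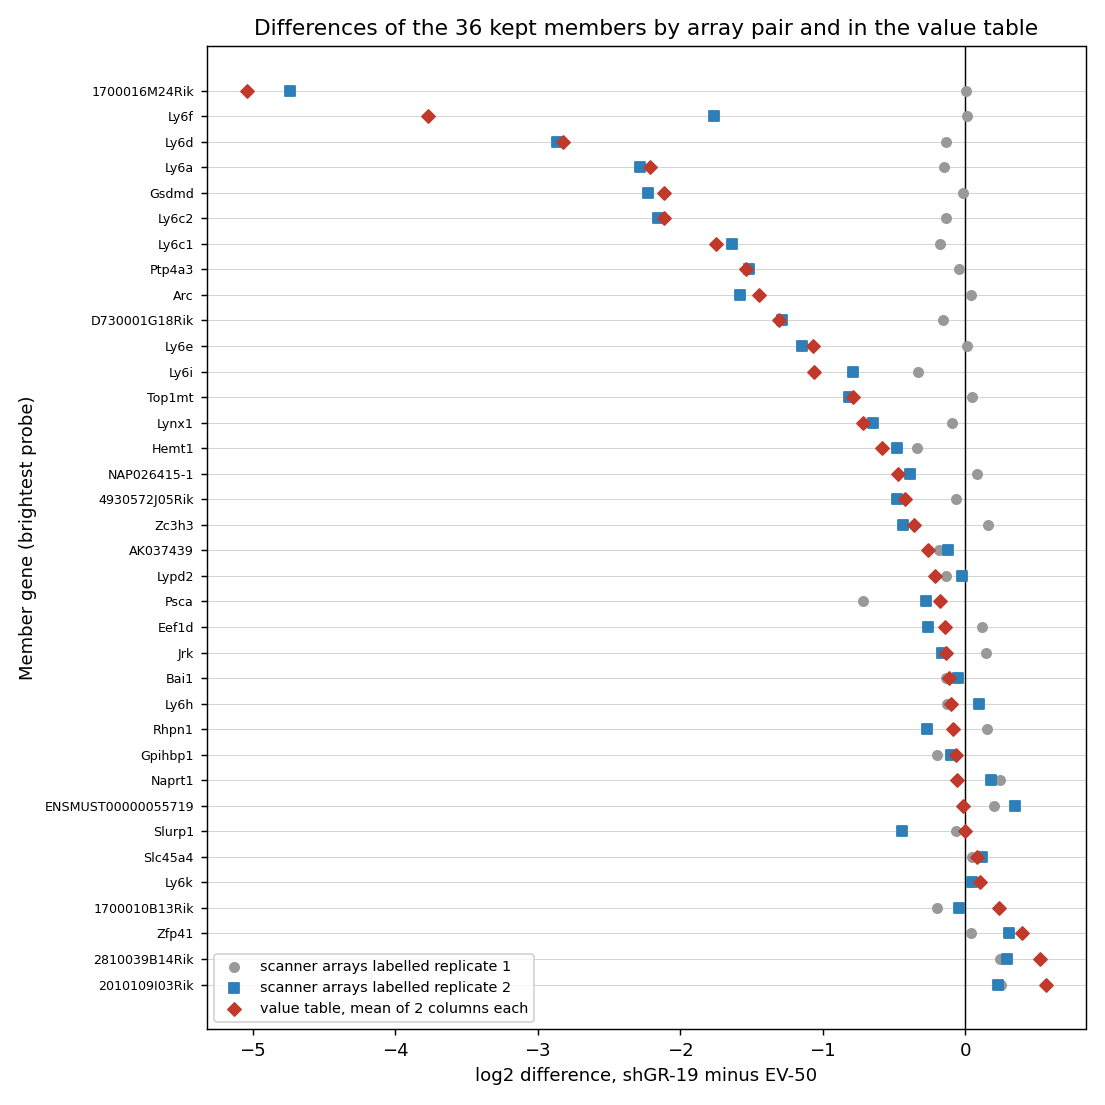
Log2 differences (x axis, shGR-19 minus EV-50) of the 36 kept members (rows, ordered by the value table) between the scanner arrays labelled replicate 1 (grey circles), between those labelled replicate 2 (blue squares) and in the value table (red diamonds). The grey circles stay within 0.714 of 0, while squares and diamonds run together to -4.74 and -5.04 for 1700016M24Rik and part most for Ly6f.

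Genes of the Ly6 and uPAR family on other chromosomes did not share a direction in the value table. Of 20 listed, 18 were on the array and 13 were kept, with a median difference of 0.17 against 0.02 over all kept genes. In limma on the table, with an adjusted p below 0.01 and more than a 2-fold difference, 1 was called lower and 1 higher, beside 2.39% and 1.87% of all kept probes. Lypd6b, a relative that acts on nicotinic receptors, fell by 3.74 on the log2 scale (adjusted p = 0.0025, limma), and Tex101, a germ cell surface protein, rose by 3.71 (adjusted p = 0.00181, limma). On the scanner Lypd6b read 0.54 and 0.35 for EV-50 and 0.65 and -3.48 for shGR-19. Tex101 read 0.68 and -3.27 for EV-50 and 0.74 and 0.28 for shGR-19. In both the arrays labelled replicate 1 were alike. On all 4 scanner arrays 0 genes of the list were called and 0 passed an unadjusted p below 0.05 (limma). Of all kept probes, 0% were called and 0.855% passed there. By the value table, that unadjusted limit was passed by 7 of 13 (2 lower and 5 higher), beside 48.4% of all kept probes in either direction. Both calls were lost in the table with the replicate block, as were all calls of the array. They were also lost with all probes kept, where 0.104% of the array was called.

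The genes that build and attach the GPI anchor, on which most Ly6 proteins depend at the cell surface, lay within 2-fold between the lines with 1 exception. Of 28 listed, 27 were kept, with a median of 0.07 in the value table. There, 1 was called lower and 0 higher, beside 2.39% and 1.87% of all kept probes. At an unadjusted p below 0.05 (limma), 6 were lower and 9 higher in the table, where 48.4% of all kept probes passed in either direction. The highest were Pgap1 with 0.87 and Pigx with 0.72. The gene called lower was Pigz, a mannosyltransferase of the pathway, with -1.24 (adjusted p = 0.00589, limma). This call was lost with the replicate block, as were all calls of the array. It was also lost with all probes kept, where 0.104% of the array was called. On the scanner Pigz differed by -0.05. There 0 genes of the list were called or passed an unadjusted p below 0.05, beside 0% and 0.855% of all kept probes. Piga, of the first step of anchor synthesis, differed by 0.16 and Gpaa1, a subunit of the enzyme that attaches the anchor and itself on chromosome 15, by -0.27, neither of them called.

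Markers of the labelled cell type were present, since 6 of 6 genes of mammary epithelium (Krt8, Krt18, Krt5, Krt14, Epcam and Cdh1) were well above background on all 4 arrays. Krt14, a basal keratin, was called lower in the value table with -1.13 (adjusted p = 0.00332, limma), and differed by -0.58 over the scanner arrays. Since Ly6 genes are also markers of blood and connective tissue cells, lists of other cell types were read beside them. Of 13 immune genes, 8 were kept and 5 were well above background on no array, among them Ptprc, the pan-leukocyte gene. S100a8 was the immune gene called, with -3.26 in the table and -1.73 over the scanner arrays, and the summed signal of the immune list was between 527 and 624 on the 4 arrays. Of 7 fibroblast genes, 3 were kept and all 3, Pdgfra, Pdgfrb and Col1a2, were called higher in the value table. Their differences were 1.17, 2.03 and 3.27 in the table and 0.95, 1.18 and 1.66 over the scanner arrays, opposite in direction to those of the Ly6-named genes, and the summed signal of this list was 1064 and 3821 for the arrays labelled EV-50, against 966 and 28800 for shGR-19. Of 4 endothelial genes 2 were kept and 0 were called, and the defining genes Pecam1 and Cdh5 were well above background on no array. Of the fibroblast genes that were not kept, Col1a1 and Col3a1 differed by 5.57 and 1.65 in the table, and Thy1 and Dcn by -0.52 and -0.03. Of all kept probes, 2.39% were called lower and 1.87% higher in the table. With the replicate block 0 of all kept probes were called, so the calls of the markers were lost as well. The part of the fibroblast genes in the differences of the block was not tested.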

How the data were processed

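The authors deposited the spot intensity of 4 one-colour Agilent arrays, background-subtracted by Agilent Feature Extraction 10.5.1.1 and not scaled between arrays. A series table deposited by the authors holds log2 values from GeneSpring, with every probe set to a median of 0 over the columns. The scale between arrays that this table used is not given in the sources used here, and its direction was read from the column labels. Coordinates are those of mm9 in the scanner files. All columns were mapped to samples by their names.

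Control spots and outlier spots (74 to 139 per array of 43379) were left out, spots of a probe were averaged, and the log2 of the 75th percentile of each array (516 to 584) was subtracted from log2 intensity. From 23290 to 27358 spots per array were well above background, and none was saturated. The number of arrays limits the precision. A probe was kept where both arrays of a line, or of each, were well above background (24443 probes, of which 24441 could be fitted on the scanner). In R 4.3.3, limma 3.58.1 (lmFit, eBayes) was fitted over all kept probes with Benjamini-Hochberg adjustment, with the scanner files as the main source and the value table as the other. A call needed more than 2-fold and an adjusted p below 0.01, the limits of the study's methods, which name no adjustment. No exact permutation test was run, since 0.333 is the smallest p it allows for 2 against 2 arrays. The fits were tested on simulated data.

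The members, the gene lists and the tests were chosen with earlier results of these data known. Genes were named by rule: the Ly6-named members, the Ly6-domain relatives, of the other kept members the 8 with the lowest and the 5 with the highest differences in the value table, the genes at the edges, and called or illustrative genes of the lists. Of 49 members, 37 had a RefSeq symbol. Promoters were aligned with Biopython 1.88 and tables handled with pandas 2.3.3. As alternatives, values were recomputed with quantile normalization, normexp correction of the background (offset 50), the percentile over detected probes, no filter, a filter on all 4 arrays, the mean of a gene's probes, a robust prior with an intensity trend (statmod 1.5.0), a replicate block, each array left out, the block without its Ly6-named genes, an adjusted p below 0.05, no limit on the fold and promoter windows of 200 bases. The arrays labelled replicate 2 alone, other filters and thresholds on the value table, the table at an adjusted p below 0.05 with the block or a column left out, the family by RefSeq symbol, and the lists under these settings were added after seeing the data.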

Additional observations from a re-analysis of the deposited data

How the results depend on the processing

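The direction of the block's medians and the absence of calls on the scanner held under normexp correction, quantile normalization, another percentile, other filters, the mean of a gene's probes, the trend with a robust prior and the block without its Ly6-named genes. The array labelled shGR-19 replicate 2 decided the scanner values. Without it the median over the Ly6-named genes was 0.021, 17 of 36 members had a lower mean, and Ly6a, Ly6c1, Ly6c2 and Ly6h turned to 0.14, 0.52, 0.19 and 0.03 (lowest without the array labelled shGR-19 replicate 1 at -2.57, -2.33 and -2.48 for Ly6a, Ly6c1 and Ly6c2, and without EV-50 replicate 2 at -0.17 for Ly6h). With each scanner array left out in turn, the Ly6-named median ran from -1.503 to 0.021, the median of all members from -0.615 to 0.022, that of members without a Ly6 name from -0.455 to 0.022 and the number of lower members from 17 to 30, with 0 calls (0 to 10 members at an unadjusted p below 0.05, the 10 without the array labelled shGR-19 replicate 1, where 4.27% of the array passed). Ly6h, near 0, also turned to 0.022 with normexp, 0.074 with quantile normalization and 0.14 without EV-50 replicate 1.

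In place of the scanner files, the value table gave a Ly6-named median of -1.75 and 11 calls, for Ly6a -2.21, Ly6c1 -1.75, Ly6c2 -2.11, Ly6d -2.83, Ly6f -3.77 and Ly6i -1.06, with 2 calls among the other Ly6 and uPAR genes and 1 among the GPI anchor genes. The arrays labelled replicate 2 alone gave -1.63. In the table, 12 members were called at an adjusted p below 0.05 (5.27% of all probes), 13 without a limit on the fold (11.6%) and 1 with all probes kept (0.104%), where the median was also -1.75. With any table column left out the Ly6-named median lay from -1.83 to -1.66. Ly6h turned to 0.047 and Ly6k to -0.10 without EV-50 replicate 1, and Ly6k to -0.00 without shGR-19 replicate 1. A line left with 1 array took its spread from the other line, so calls are not read from these fits of the table.

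With the replicate number as a block, the Ly6-named medians were -0.88 on the scanner and -1.75 in the table. In either, 0 members were called, and 0 of all kept probes. At an unadjusted p below 0.05, 0 and 20 members passed, where 2.44% and 49.4% of all probes did. The block thus ended every call of the array in the table. Among these were all 11 of members and those of the Ly6 and uPAR and GPI anchor lists. At an adjusted p below 0.05 the block left 12 (5.07% of all probes). Deviations of same-numbered arrays correlated at 0.706 on the scanner and 0.43 in the table. There are 2 such pairs, which by their labels share only a number. In their values the scanner arrays labelled replicate 1 were nearly alike, with an SD of the log2 difference of 0.0801.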
